A study of Mus musculus with 12 samples.

Results

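The 10 genes of calcium-dependent phosphorylation were followed in 12 arrays of cultured cerebellar granule cells: the calmodulin-dependent kinases Camk1, Camk4, Camk2b, Camk2d and Camk2g, the kinase kinase Camkk2, the calcineurin genes Ppp3ca, Ppp3cb and Ppp3r1, and the protein kinase C gene Prkcb. They were taken by name: every probe set annotated to exactly 1 of the 10 symbols was used, which gave 34 of the 45101 probe sets of the array. A probe set was tested when its log2 intensity was above 4 in at least 3 of the 12 arrays, and 28 of the 34 met this, with at least 1 for each gene. The other 6 (1 each of Camk1, Camk4, Camkk2, Camk2d, Ppp3cb and Prkcb) stayed between 2.54 and 4.29 in all arrays, near background. A further probe set shared by Ppp3r1 and another gene was left out.

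All cultures came from lethargic mice (129/SvJ background, postnatal day 7), which carry a mutated Cacnb4, the gene of the calcium channel subunit β4. The cells were transduced for 12 hours at plating with lentivirus for 1 of the splice variants β4a, β4b and β4e or, in the control group, for eGFP. RNA was taken after 9 days in vitro, with an antimitotic drug against dividing cells. Each of the 4 groups had 3 arrays, and the titles number the replicates 1 to 3 in every group. The labels do not say whether these were separate cultures or animals, so the p-values measure the spread between these arrays. The eGFP cells share the lethargic mutation with the others, and no array of wild-type cells was analysed here.

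Calcium that enters a neuron binds calmodulin, and calcium-loaded calmodulin switches on both arms of this group. CaMKK2 phosphorylates CaMKI and CaMKIV, CaMKII subunits assemble into a large ring that can hold itself active by autophosphorylation, and calcineurin, built of a catalytic A and a regulatory B subunit, removes phosphates, among others from the NFAT transcription factors. CaMKIV is a nuclear kinase of CREB that is abundant in cerebellar granule cells, and PKCβ is a kinase of the conventional class that needs calcium and diacylglycerol.

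The RefSeq promoter table (GRCm38.p6) held a window of 250 bases before to 50 after the start for 7 of the 10 genes: Camk1, Camkk2, Camk2b, Camk2d, Ppp3cb, Ppp3r1 and Prkcb. Those of Prkcb, whose level varied most between the arrays, and Ppp3cb, whose brightest probe set varied least, are printed 5′ to 3′ on the gene's strand, with matches to GGGCGG (GC box) or CAGCTG (an E box core) on either strand in capitals.
Prkcb, chr7:122288875-122289174, plus strand: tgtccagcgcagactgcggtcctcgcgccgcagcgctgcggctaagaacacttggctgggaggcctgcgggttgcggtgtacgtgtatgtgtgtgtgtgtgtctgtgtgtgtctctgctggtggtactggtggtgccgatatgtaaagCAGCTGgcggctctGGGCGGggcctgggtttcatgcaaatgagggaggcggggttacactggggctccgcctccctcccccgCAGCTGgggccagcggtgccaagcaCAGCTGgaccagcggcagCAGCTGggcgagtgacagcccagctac
Ppp3cb, chr14:20546524-20546823, minus strand: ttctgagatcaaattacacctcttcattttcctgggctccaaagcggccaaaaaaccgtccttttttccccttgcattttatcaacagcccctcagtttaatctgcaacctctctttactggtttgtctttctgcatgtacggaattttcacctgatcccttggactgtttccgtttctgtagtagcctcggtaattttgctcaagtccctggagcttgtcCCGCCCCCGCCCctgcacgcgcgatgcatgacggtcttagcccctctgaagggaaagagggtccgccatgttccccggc
The Prkcb window held 4 matches to CAGCTG and 1 to GGGCGG. Of the 32851 windows of the table, 16.3% held at least 1 CAGCTG and 0.03% held at least 4, while 35.7% held at least 1 GGGCGG. The Ppp3cb window held 0 CAGCTG and 2 GGGCGG, the second directly after the first. TGACG, the core of the cAMP response element,, present in 20.8% of all windows, was found once each in Camk1, Ppp3cb and Ppp3r1 and in none of the other 4 windows, and TATAAA in none of the 7. These are matches of letters only, and the CAGCTG search was chosen after the sequence had been read.

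The values were log2 GCRMA intensities, and levels of different probe sets cannot be set against each other. Across all tested probe sets, the replicate number accounted for 76.0% of the total sum of squares and the group for 10.5%, so each comparison is given without and with the replicate number as a block. The 3 probe sets of Cacnb4 read between 9.41 and 12.24 in all 12 arrays, eGFP included, and the part of the transcript they read is not given, so they do not check the added variant. Of 10 granule cell markers, 9 had a probe set and all 9 were above the filter. Their mean log2 level was 12.85 to 12.96 with β4a, 12.81 to 12.96 with β4b, 12.80 to 13.10 with β4e and 12.99 to 13.12 with eGFP, so the β4a and β4b arrays lay below all eGFP arrays. All 9 astrocyte markers were above the filter and had a higher mean with each variant than with eGFP, and their mean level was 9.22 to 10.13 with β4a, 9.31 to 10.50 with β4b, 9.35 to 9.51 with β4e and 8.49 to 9.54 with eGFP. This was not particular to astrocytes. Of 8 oligodendrocyte lineage markers, 7, 8 and 7 had a higher mean with β4a, β4b and β4e. Their level differed from eGFP by 0.06, 0.20 and 0.28 with β4a in replicates 1 to 3. With β4b it differed by 0.06, 0.36 and 0.46, and with β4e by 0.03, 0.32 and 0.02. Of 7 microglia markers, 2, 5 and 5 had a higher mean. Of 5 Purkinje cell markers with a probe set, Pcp2, Ppp1r17 and Slc9a3 stayed at or below 4 in every array. In such bulk RNA, fewer cells of a type and less RNA per cell cannot be told apart.

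No member passed for any variant. By limma with Benjamini-Hochberg adjustment over 23044 probe sets, 0 of the 28 member probe sets passed against eGFP for β4a, β4b or β4e (background 0% each), and 0 passed with the replicate block (background 0.013% for β4a, 0.013% for β4b and 0% for β4e). For the mean of the 3 variants against eGFP, 0 passed without the block (background 0%) or with it (background 0.0217%). At an unadjusted p under 0.05 without the block there were 2 member probe sets for β4a (background 1.58%) and 2 for β4b (background 2.63%). There was 1 for β4e (background 0.36%), and there were 2 for the mean (background 2.03%). All of these read 1 gene, Camk4, by 1441974_at and, except for β4e, also by 1426167_a_at. The 3 comparisons share the eGFP arrays and are given side by side. The median log2 difference of the 28 probe sets was -0.05 for β4a, -0.03 for β4b and -0.02 for β4e, beside 0.02, 0.03 and 0.01 over all probe sets tested.

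Each variant array was also set against the eGFP array of its replicate number. With β4a, 5 of the 28 (17.9%) stood higher than eGFP in all 3 replicate numbers, against 19.1% of all probe sets tested, and 8 (28.6%) lower, against 16.4%. With β4b, 7 (25%) stood higher in all 3, against 22.9%, and 8 (28.6%) lower, against 18.1%. With β4e, 1 (3.57%) stood higher in all 3, against 15.3%, and 4 (14.3%) lower, against 12.4%. At an unadjusted p under 0.05 with the replicate block there were 7 for β4a (25%, background 15.3%), 7 for β4b (25%, background 19.3%) and 5 for β4e (17.9%, background 5.54%). Several of these read the same gene, so the counts are not counts of independent genes. They came from Prkcb, Camk4, Camk2d, Ppp3cb and Ppp3r1. Groups without overlap were found in the higher direction for 3 probe sets with β4a (10.7%, background 2.87%), for the same 3 with β4b (10.7%, background 3.64%) and for 0 with β4e (background 1.4%), and in the lower direction for 0 with each (background 1.59%, 2% and 0.759%). These 3 were Camk4 1441974_at, Camk4 1426167_a_at and Ppp3cb 1433835_at.

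**Figure D1:**
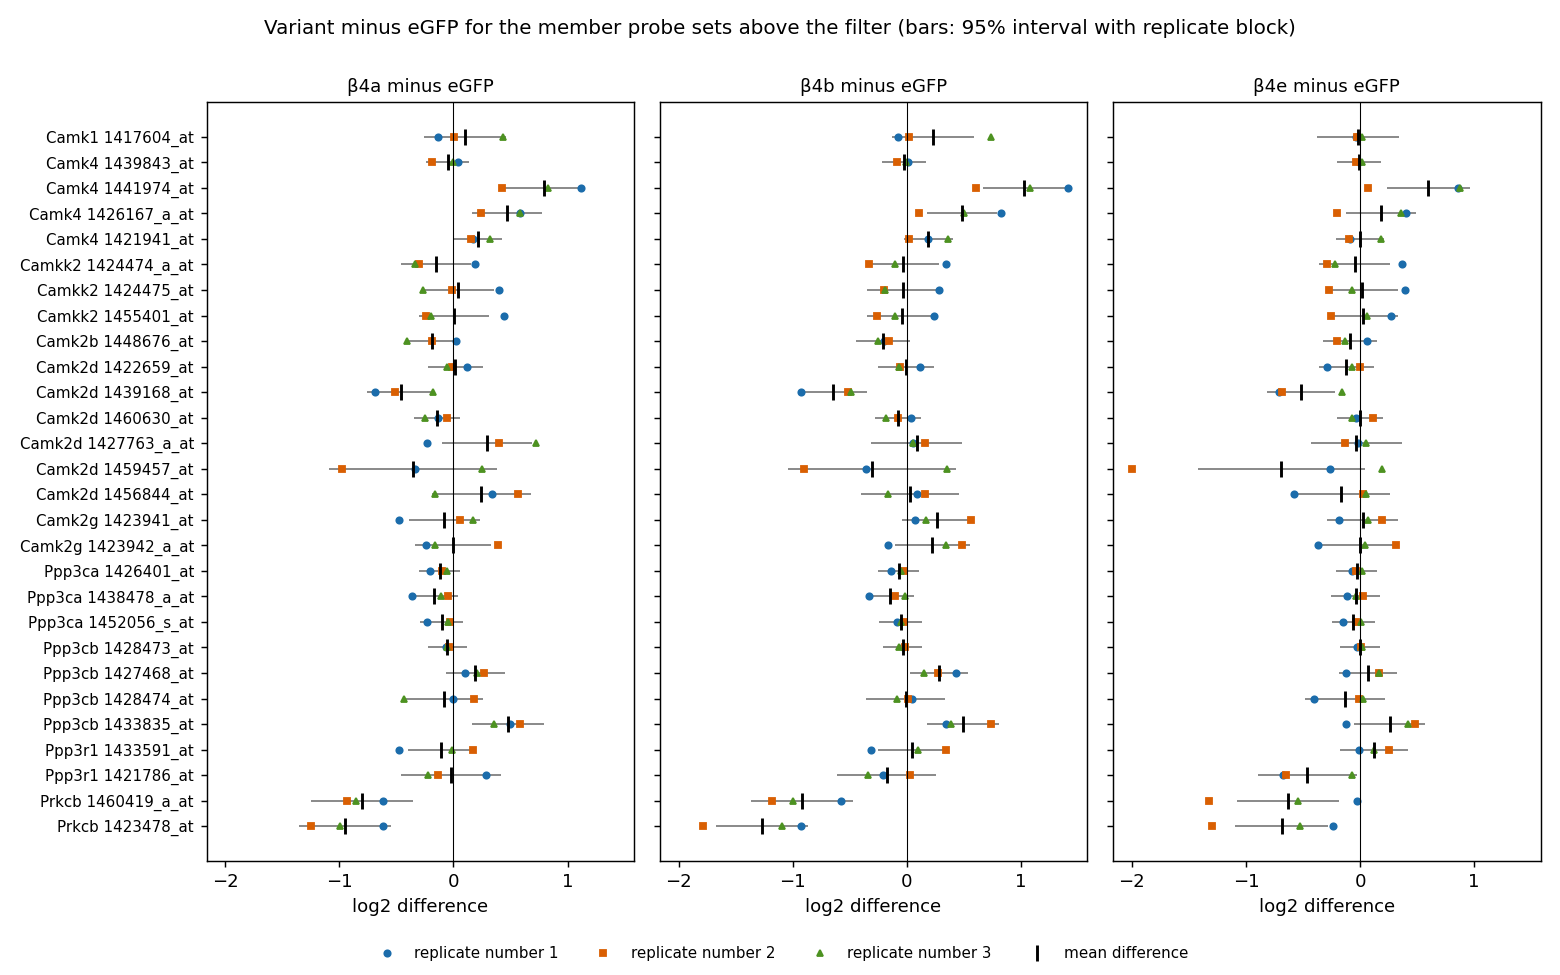
Log2 difference of each variant from eGFP (x axis) for the 28 member probe sets above the filter (y axis), one panel per variant. Symbols are the differences within replicate numbers 1 to 3, black ticks their mean, and bars the 95% interval of the fit with the replicate block. In every panel the 2 Prkcb probe sets and Camk2d 1439168_at lie left of 0 in every number and Camk4 1441974_at right of 0. Each of the others straddles 0 in at least 1 panel.

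Prkcb stood lower with every variant. Its probe set 1423478_at read 10.36, 7.68 and 9.06 with β4a in replicates 1 to 3, 10.06, 7.14 and 8.96 with β4b, 10.75, 7.63 and 9.52 with β4e, and 10.98, 8.93 and 10.05 with eGFP. The groups overlapped because the replicate numbers lay far apart, but inside each number the eGFP array was the highest of the 4. The log2 difference was -0.95 for β4a (1.94-fold lower), with -0.62, -1.25 and -0.99 in the 3 numbers. For β4b it was -1.27 (2.41-fold lower), with -0.92, -1.79 and -1.09. For β4e it was -0.69 (1.61-fold lower), with -0.23, -1.30 and -0.53. The size of the β4b difference was thus close to 1 log2 unit or more in each number, and that of β4e was smallest in replicate 1.

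The limma adjusted p with the replicate block was 0.163 for β4a, 0.0520 for β4b and 0.873 for β4e, and 0.9999 for each without it. With the block the 95% interval was -1.36 to -0.55 for β4a, -1.67 to -0.86 for β4b and -1.09 to -0.28 for β4e. By unadjusted blocked p it was the probe set of rank 17 of 23044 for β4b. When 1 array was left out, the blocked β4b difference stayed between -1.46 and -1.03 and its adjusted p between 0.0468 and 0.190, passing only without eGFP replicate 1. Without the block, the difference lay between -1.62 and -0.28 for β4a, between -1.94 and -0.48 for β4b and between -1.41 and 0.15 for β4e as single arrays were left out, and it was above 0 only for β4e without β4e replicate 2.

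The probe set Prkcb 1460419_a_at gave the same picture with smaller differences. It read 11.71, 9.97 and 10.87 with β4a, 11.75, 9.73 and 10.72 with β4b, 12.30, 9.59 and 11.18 with β4e, and 12.33, 10.91 and 11.72 with eGFP. The eGFP array was again the highest in each number, by as little as 0.03 over β4e in replicate 1. The log2 differences were -0.80 for β4a, -0.92 for β4b and -0.63 for β4e, or 1.74-fold, 1.89-fold and 1.55-fold lower. None passed (limma adjusted p 0.179, 0.0922 and 0.878 with the block, 0.9999 each without). Here too the unblocked β4e difference was above 0 (0.09) without β4e replicate 2. The third Prkcb probe set, 1443144_at, stayed between 2.80 and 3.15 and carries no information on the gene.

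Prkcb varied more between replicate numbers than between groups. By 1423478_at the 4 arrays of replicate number 1 averaged 10.54 ± 0.41 (SD), those of number 2 averaged 7.85 ± 0.76 and those of number 3 averaged 9.40 ± 0.50, a spread of 2.69. The markers of interneurons and unipolar brush cells followed the same order, with a mean level of 7.34 to 7.75 in number 1, 6.22 to 6.76 in number 2 and 6.71 to 7.21 in number 3. So did the Purkinje cell markers (4.13 to 4.41, 3.19 to 3.25 and 3.49 to 3.70), but only 2 of the 5 with a probe set were above the filter. The granule cell markers spanned 12.96 to 13.12, 12.80 to 12.99 and 12.86 to 12.99. Their ranges were thus also highest in number 1 and lowest in number 2, with overlap. Against eGFP, the interneuron and unipolar brush cell level differed by 0.41, -0.54 and -0.11 with β4a in replicates 1 to 3, by 0.08, -0.31 and -0.50 with β4b and by 0.23, -0.34 and -0.11 with β4e. It was thus below eGFP in replicates 2 and 3 and above it in replicate 1 with each variant, and 2, 0 and 1 of its 6 markers had a higher mean than eGFP with β4a, β4b and β4e. The astrocyte level differed from eGFP by -0.21, 0.74 and 1.28 with β4a in replicates 1 to 3, where Prkcb 1423478_at differed by -0.62, -1.25 and -0.99. With β4b the astrocyte level differed by -0.23, 1.10 and 1.65 and Prkcb by -0.92, -1.79 and -1.09. With β4e the astrocyte level differed by -0.03, 1.02 and 0.50 and Prkcb by -0.23, -1.30 and -0.53. The Prkcb difference was thus smallest in size in replicate 1 with each variant, where the astrocyte level was below eGFP. With β4a and β4b the astrocyte difference was largest in replicate 3 and the Prkcb difference in replicate 2. With β4e both were largest in replicate 2. The granule cell marker level was lower than eGFP in all 3 numbers with each variant. It differed by -0.16, -0.14 and -0.13 with β4a, by -0.17, -0.18 and -0.12 with β4b and by -0.02, -0.19 and -0.10 with β4e. The part of these cell types in the Prkcb level was not tested.

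Camk4, the gene of CaMKIV, gave different answers from its probe sets. Its brightest, 1439843_at, read 13.59, 13.57 and 13.67 with β4a, 13.56, 13.67 and 13.68 with β4b, 13.54, 13.72 and 13.70 with β4e, and 13.55, 13.76 and 13.68 with eGFP. All 12 arrays lay within 0.21 log2 units, and the groups overlapped. The differences from eGFP were -0.05, -0.02 and -0.01 for β4a, β4b and β4e, with 95% intervals in the blocked fit of -0.24 to 0.14, -0.21 to 0.16 and -0.20 to 0.18. By this probe set a difference of 0.25 log2 units or more lies outside all 3 blocked intervals. Without the block the intervals were -0.30 to 0.19, -0.27 to 0.22 and -0.26 to 0.24, and a difference of -0.25 lies inside each.

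Camk4 1441974_at stood higher with every variant. It read 8.89, 9.26 and 9.09 with β4a, 9.18, 9.44 and 9.34 with β4b, 8.63, 8.90 and 9.14 with β4e, and 7.77, 8.83 and 8.26 with eGFP. Every β4a and β4b array was above every eGFP array, and the β4e arrays overlapped with them. The log2 difference was 0.79 for β4a (1.73-fold higher; 1.12, 0.42 and 0.83 in the 3 numbers), 1.03 for β4b (2.04-fold; 1.41, 0.61 and 1.08) and 0.60 for β4e (1.52-fold; 0.86, 0.07 and 0.87). None passed (limma adjusted p 0.173, 0.0550 and 0.873 with the block, 0.9999 each without). Leaving out single arrays kept the blocked β4b difference between 0.87 and 1.25 (adjusted p 0.0619 to 0.184).

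Camk4 1426167_a_at read 8.24, 8.44 and 8.59 with β4a, 8.48, 8.31 and 8.51 with β4b, 8.06, 8.00 and 8.37 with β4e, and 7.66, 8.20 and 8.01 with eGFP. The β4a and β4b arrays again lay above all eGFP arrays, though β4a replicate 1 cleared eGFP replicate 2 by little. The differences were 0.47, 0.48 and 0.19 (limma adjusted p 0.211, 0.128 and 0.911 with the block). The fourth, 1421941_at, lay just above the filter (3.91 to 4.48) and differed by 0.21, 0.19 and 0.00, and 1452572_at stayed below 4. The probe sets that stood higher are thus not the one with the brightest signal, and which transcripts each of them reads was not analysed here.

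**Figure D2:**
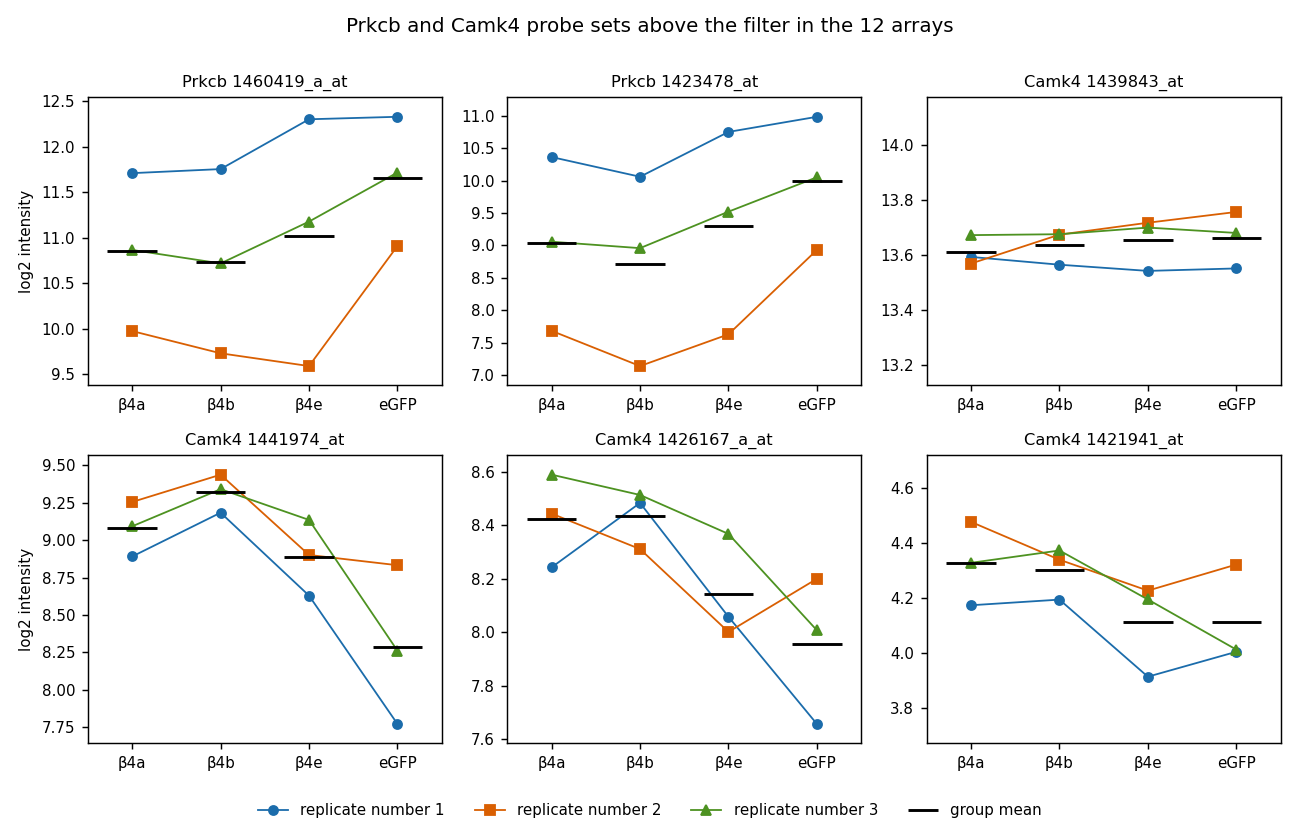
Log2 intensity (y axis) of the 2 Prkcb and 4 Camk4 probe sets above the filter by group (x axis), with a line per replicate number and a black bar at each group mean. The eGFP points are the highest of each line for Prkcb and the lowest for Camk4 1441974_at, and Camk4 1439843_at is flat.

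Camkk2, the kinase that activates CaMKI and CaMKIV, had no common direction. Its brightest probe set, 1424474_a_at, read 11.74, 11.83 and 11.63 with β4a, 11.90, 11.80 and 11.87 with β4b, 11.93, 11.85 and 11.75 with β4e, and 11.55, 12.14 and 11.97 with eGFP. The eGFP arrays were the lowest of replicate 1 and the highest of replicates 2 and 3, so all 3 variants stood above eGFP in number 1 (0.19, 0.34 and 0.37) and below it in the others. The mean differences were -0.15, -0.03 and -0.05. Camkk2 1424475_at and 1455401_at differed by at most 0.04 in size from eGFP on average, and both also had their lowest array of replicate 1 with eGFP.

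Camk1, the gene of CaMKIα, was near background. Its probe set 1417604_at lay between 3.95 and 4.69 in the 12 arrays. It read 4.38 with β4a, 4.69 with β4b and 3.97 with β4e in replicate 3, against 3.95 with eGFP, while in replicates 1 and 2 the 4 arrays lay within 0.13 and 0.05 of each other. The astrocyte markers were higher than eGFP in replicate 3 by 1.28 with β4a, 1.65 with β4b and 0.50 with β4e, and their part in the Camk1 level was not tested. The mean differences of Camk1 were 0.10, 0.23 and -0.02 (limma adjusted p 0.802, 0.470 and 0.996 with the block).

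Of the CaMKII subunits, Camk2b, the β subunit that binds actin, had 1 probe set. It read 11.24, 11.41 and 11.05 with β4a, 11.02, 11.44 and 11.20 with β4b, 11.27, 11.39 and 11.32 with β4e, and 11.21, 11.59 and 11.45 with eGFP. It stood below eGFP in all 3 numbers with β4b (-0.20, -0.16 and -0.26), but the groups overlapped. The mean differences were -0.19, -0.20 and -0.09 (limma adjusted p 0.424, 0.323 and 0.948 with the block). Camk2g, the γ subunit, differed by -0.08, 0.27 and 0.02 on 1423941_at and by 0.00, 0.22 and 0.00 on 1423942_a_at. By 1423941_at it read 9.29, 8.99 and 9.15 with β4b against 9.22, 8.42 and 8.98 with eGFP, higher in each number but overlapping (limma adjusted p = 0.327 with the block).

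Camk2d, the δ subunit, had 6 probe sets above the filter that differed in direction. The brightest, 1422659_at, read 11.72, 11.49 and 11.53 with β4a, 11.72, 11.44 and 11.52 with β4b, 11.31, 11.51 and 11.52 with β4e, and 11.60, 11.50 and 11.59 with eGFP. Its differences from eGFP were 0.02, 0.00 and -0.12, and outside replicate 1 the 4 arrays of a number lay within 0.06 and 0.07 of each other. Camk2d 1439168_at stood lower with every variant. It read 7.65, 9.50 and 9.47 with β4a, 7.41, 9.49 and 9.15 with β4b, 7.63, 9.32 and 9.48 with β4e, and 8.34, 10.01 and 9.64 with eGFP. The eGFP array was the highest of each number, though the groups overlapped. The differences were -0.46 for β4a, -0.64 for β4b and -0.52 for β4e (limma adjusted p 0.211, 0.0860 and 0.873 with the block, 0.9999 each without). Without the block, the difference was 0.15 for β4a without β4a replicate 1 and 0.07 for β4e without β4e replicate 1.

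The other 4 Camk2d probe sets differed by -0.69 to 0.29 from eGFP, and none stood to the same side of eGFP in all 3 numbers with every variant. Much of the variation in Camk2d lay between the replicate numbers, and the order of the numbers was not the same in all probe sets. By 1439168_at the replicate numbers 1, 2 and 3 averaged 7.76, 9.58 and 9.44, with number 1 low. By 1427763_a_at they averaged 8.54, 7.26 and 8.61, with number 2 low, and by 1456844_at 5.05, 5.91 and 4.43, with number 2 high. The same 4 arrays of a number therefore gave high and low readings for one gene, depending on the probe set. In 1459457_at the arrays of replicate 2 lay furthest apart, at 8.55 with β4a, 8.63 with β4b and 7.54 with β4e, against 9.53 with eGFP.

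**Figure D3:**
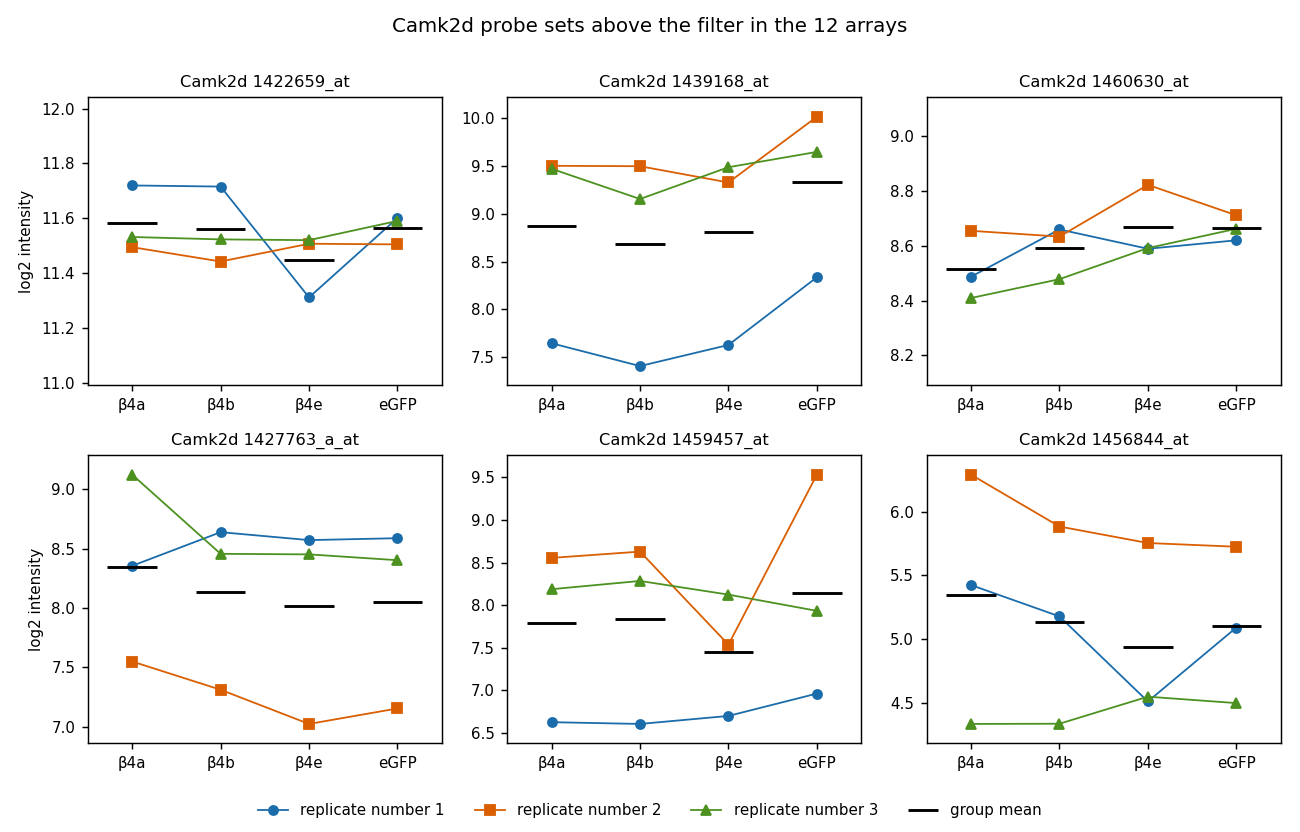
Log2 intensity (y axis) of the 6 Camk2d probe sets above the filter by group (x axis), with a line per replicate number and a black bar at each group mean. Replicate number 1 is lowest in 1439168_at and 1459457_at and number 2 is lowest in 1427763_a_at, while 1422659_at varies by 0.41 in all.

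The calcineurin catalytic genes Ppp3ca and Ppp3cb varied little between arrays by their brightest probe sets. Ppp3ca 1426401_at, for the Aα subunit, read 13.53, 13.59 and 13.72 with β4a, 13.59, 13.67 and 13.72 with β4b, 13.66, 13.65 and 13.79 with β4e, and 13.73, 13.69 and 13.77 with eGFP. It stood below eGFP in each number with β4a and β4b, by at most 0.21, and the groups overlapped. The differences were -0.12, -0.07 and -0.03 (blocked 95% intervals -0.30 to 0.06, -0.25 to 0.11 and -0.21 to 0.15). The 2 other Ppp3ca probe sets also stood below eGFP in every number with β4a and β4b, with mean differences of -0.17 and -0.15 on 1438478_a_at and -0.10 and -0.05 on 1452056_s_at. None passed (limma adjusted p 0.408 to 0.768 with the block).

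Ppp3cb 1428473_at, for the Aβ subunit, varied by 0.17 over the 12 arrays, from 12.88 to 13.05. Its differences from eGFP were -0.05, -0.04 and 0.00, with blocked 95% intervals that stayed between -0.23 and 0.18. Ppp3cb 1433835_at stood higher. It read 7.85, 8.18 and 8.03 with β4a, 7.70, 8.34 and 8.06 with β4b, 7.23, 8.08 and 8.09 with β4e, and 7.36, 7.60 and 7.68 with eGFP. The β4a and β4b arrays lay above all eGFP arrays, and β4e overlapped through replicate 1. The differences were 0.48, 0.49 and 0.26 (limma adjusted p 0.217, 0.129 and 0.894 with the block). Ppp3cb 1427468_at differed by 0.19, 0.28 and 0.07 and 1428474_at by -0.09, -0.01 and -0.13. As for Camk4, the probe sets of this gene did not share 1 answer.

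Ppp3r1, for the regulatory B subunit, read 12.50, 12.47 and 12.35 with β4a, 12.66, 12.65 and 12.46 with β4b, 12.97, 12.56 and 12.49 with β4e, and 12.97, 12.30 and 12.37 with eGFP by its brightest probe set 1433591_at. The eGFP array was the highest of replicate 1 and the lowest of replicate 2, and the differences were -0.11, 0.04 and 0.12. By 1421786_at it stood lower with β4e in every number (-0.67, -0.64 and -0.07; mean -0.46) without passing (limma adjusted p = 0.892 with the block), and differed by -0.02 with β4a and -0.18 with β4b.

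**Figure D4:**
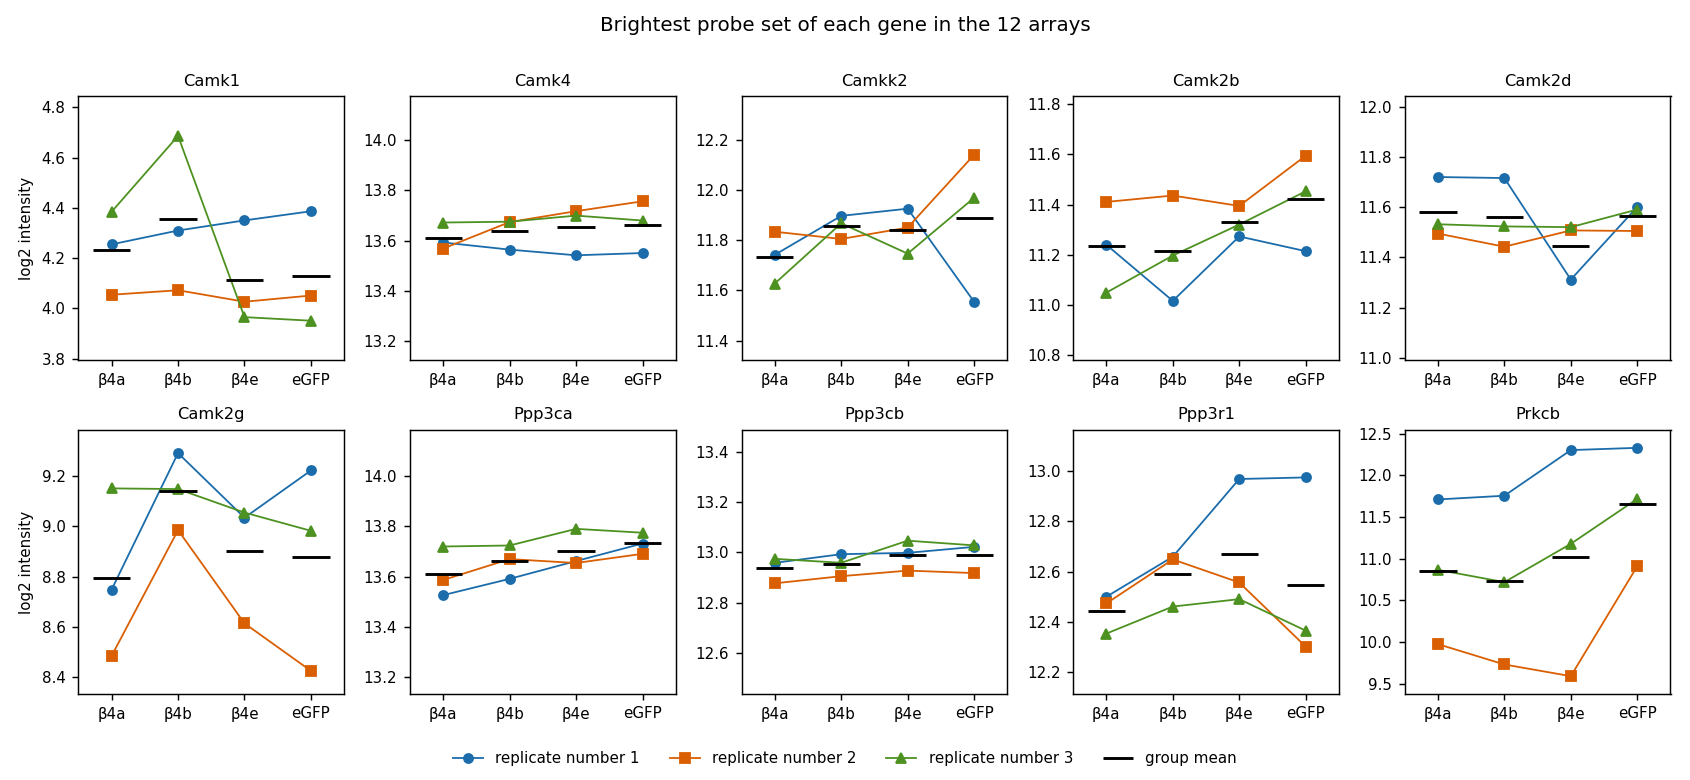
Log2 intensity (y axis, own range per panel) of the brightest probe set of each of the 10 genes by group (x axis), with a line per replicate number and a black bar at each group mean. Prkcb spans 2.74 log2 units with clear steps between the replicate numbers, against 0.17 for Ppp3cb, 0.21 for Camk4 and 0.26 for Ppp3ca.

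Between the variants, 0 of the 28 member probe sets passed for β4a against β4b, β4a against β4e or β4b against β4e by limma, with or without the replicate block (background 0% in each). At an unadjusted p under 0.05 there were 0 members in each comparison without the block (background 0.243%, 0.664% and 0.759%), and 1, 2 and 2 with it (background 2.69%, 6.33% and 7.11%). The most marked was Prkcb 1423478_at, which stood lower with β4b than with β4e by a difference of -0.58 (-0.69, -0.49 and -0.56 in the 3 numbers; blocked 95% interval -0.99 to -0.18, limma adjusted p = 0.663 with the block). Prkcb 1460419_a_at differed between these by -0.29 (interval -0.74 to 0.16) and did not share a sign in replicate 2 (0.14). Camk4 1441974_at stood higher with β4b than with β4e by 0.43 (0.55, 0.54 and 0.21; interval 0.07 to 0.80, limma adjusted p = 0.676 with the block). Between β4a and β4b, the member under 0.05 was Camk2g 1423941_at, which differed by -0.35 (-0.54, -0.50 and 0.00 in the 3 numbers; interval -0.66 to -0.04, limma adjusted p = 0.998 with the block). Between β4a and β4e they were Camk4 1421941_at, with a difference of 0.22 (0.26, 0.25 and 0.13; interval 0.00 to 0.43), and Ppp3r1 1421786_at, with 0.44 (0.96, 0.51 and -0.15; interval 0.01 to 0.88), both with a limma adjusted p of 0.759 with the block. Between β4a and β4b, Prkcb 1423478_at differed by 0.31 (interval -0.09 to 0.72) and Camk4 1441974_at by -0.24 (-0.61 to 0.13).

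Replicate number, tested by a moderated F test with group in the model, passed for 15 of the 28 member probe sets (53.6%), below the 65.2% of all probe sets tested. Of the brightest probe sets 3 of 10 passed, those of Prkcb, Camk2g and Ppp3r1. Prkcb had the smallest p of these (limma adjusted p = 5.5e-05 on 1460419_a_at). Of all 28, Camk2d 1439168_at had the smallest (limma adjusted p = 7.3e-06), followed by Prkcb 1423478_at (8.2e-06). Camk2g averaged 9.07, 8.63 and 9.08 in replicate numbers 1, 2 and 3 (adjusted p = 0.0113) and Ppp3r1 12.78, 12.50 and 12.42 (adjusted p = 0.0427). For Camk4, Camkk2, Camk2b, Camk2d, Ppp3ca and Ppp3cb the means of the numbers lay within 0.10 to 0.27 of each other by the brightest probe set. Camk4 1441974_at was the member probe set with the highest share of its sum of squares between groups, 68.8%, against 19.7% between replicate numbers. The medians of the 28 member probe sets were 17.2% between groups and 52.4% between numbers, beside 12.0% and 64.2% over all probe sets tested.

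The other genes of the pathway, 37 in 4 lists, were read by their brightest probe set where one was above the filter, which left 22. For each variant 0 of the 22 passed with or without the replicate block. With β4a 10 stood higher and 12 lower (median -0.04), with β4b 9 and 13 (median -0.04) and with β4e 12 and 10 (median 0.02). At an unadjusted p under 0.05 with the block there were 2, 4 and 1, against 15.3%, 19.3% and 5.54% of all probe sets tested. Of the CaM kinases and their inhibitors, Camk2n1, an inhibitor protein of CaMKII, differed by -0.39 with β4a, -0.35 with β4b and -0.14 with β4e (limma adjusted p 0.222, 0.171 and 0.928 with the block), and the doublecortin-like kinase Dclk1 by 0.50, 0.42 and 0.30 (0.322, 0.331 and 0.911). Of the calmodulin list only Gap43 and Pcp4, which both bind calmodulin, were above the filter. Pcp4 differed by -0.46, -0.60 and -0.07 (0.408, 0.231 and 0.992) and Gap43 by 0.08, -0.04 and -0.05 (0.854, 0.918 and 0.991).

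Among the other protein kinase C genes, Prkcd, of the calcium-independent class, differed by 0.15, 0.52 and 0.12 (limma adjusted p 0.726, 0.175 and 0.967 with the block) and Prkce, also calcium-independent, by -0.30, -0.32 and -0.25 (0.344, 0.243 and 0.895). Prkca, of the same conventional class as Prkcb, differed by -0.32, -0.29 and -0.01 (0.385, 0.355 and 0.999). Of the calcineurin list, Ppp3cc, the Aγ subunit, differed by 0.26, 0.20 and 0.09 (0.414, 0.482 and 0.975) and Akap5, an anchor of calcineurin and kinases, by -0.13, -0.14 and -0.03 (0.638, 0.574 and 0.992). Rcan1, a calcineurin inhibitor that NFAT induces, differed by -0.11, -0.04 and 0.08 (0.736, 0.898 and 0.978).

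Replicate number passed the F test for 18 of these 22 genes, each read by its brightest probe set. Over all probe sets tested, dimmer ones of the same gene included, the share was 65.2%. The 18 were Pcp4, Camk1d, Pnck, Camk2n1, Camk2n2, Dapk1, Ppp3cc, Rcan1, Rcan2, Cabin1, Akap5, Prkca, Prkcd, Prkce, Prkcz, Marcks, Marcksl1 and Add3. Camk1d, a CaMKI kinase, had the smallest adjusted p, 4.05e-06 by limma. Against eGFP it differed by 0.32, 0.32 and 0.47 with β4a, β4b and β4e (limma adjusted p 0.374, 0.310 and 0.878 with the block).

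Within replicate numbers, after the mean of each was subtracted, the genes with the pattern most like a member over the 12 arrays were found by Pearson r among 10973 genes, as a description. These were Spsb3 (0.97) and Grm5 (0.97), a metabotropic glutamate receptor, for Prkcb, Sox9 (0.96) and Slc38a3 (0.95) for Camk1, and Fpr2 (0.98) and Nrde2 (0.95) for Ppp3r1. Sox9 is 1 of the 9 astrocyte markers. For Camk2d they were Egr3 (0.95), an activity-induced transcription factor, and Irf2bpl (0.94), for Camk2b Kdm1a (0.94) and Dmwd (0.92), for Camk2g Sdc1 (0.91) and Pole3 (0.91), and for Camkk2 Brd8 (0.93) and Oxct1 (0.92). For Ppp3ca they were Gm31679 (0.94) and 2310067E19Rik (0.93), for Ppp3cb Axin1 (0.93) and Zbtb6 (0.91) and for Camk4 Dennd5a (0.90) and Atp11a (0.90). The members' own spread within the numbers was small for most of these (SD 0.03 for Ppp3cb, 0.04 for Camk4 and 0.06 for Ppp3ca, against 0.43 for Prkcb). For 2 members it lay mostly in 1 number. The SD in numbers 1, 2 and 3 was 0.19, 0.03 and 0.03 for Camk2d and 0.06, 0.02 and 0.36 for Camk1. In number 1 Camk2d read 11.31 with β4e, against 11.60 to 11.72 in the other groups, so its likeness rests largely on 1 array. Egr3 spanned 8.96 log2 units over the 12 arrays, against 0.41 for Camk2d.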

How the data were processed

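Gene expression was measured on 12 Affymetrix mouse 3′ arrays, 1 per sample, from 500 ng of RNA labelled with biotin, per the labels' protocols. The deposited values were log2 intensities made by the authors with GCRMA, per the submitters' processing notes; its version is not given in the sources used here. They ran from 1.27 to 15.0, with array medians of 3.84 to 3.90, and were used as deposited. Of 45101 probe sets, 64 controls were left out, and the platform annotation gave 1 symbol to 34945, several to 932 and none to 9160.

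Probe sets above 4 in at least 3 arrays (23044) were fitted over all 12 arrays with limma 3.58.1 in R 4.3.3 (lmFit, eBayes, 8 residual degrees of freedom, 6 with the block), two-sided, with Benjamini-Hochberg adjustment and a threshold of 0.05. The number of arrays limits the precision. Deviations from the group means correlated in all 18 pairs of arrays that share a number (r 0.700 to 0.884; other pairs at most 0.146), so the numbers were taken to pair the arrays. Of 10 members the brightest probe set stood for the gene, and all others were given. Pathway genes were named if a test passed, or as the 2 of a list with the smallest blocked p for β4a or β4b against eGFP. The members, lists and rules were chosen with earlier results of these data known. Alternatives were the block, fixed or random, other filters, quantile normalization, a variance trend and leaving out each array.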

Additional observations from a re-analysis of the deposited data

How the results depend on the processing

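Without the replicate block, all settings gave 0 member probe sets past the threshold in the 7 group comparisons. With it, 0 passed too, except 1, Prkcb 1423478_at for β4b against eGFP, without eGFP replicate 1 (0 to 1 over the fits that left out an array). Over all probe sets the block gave 3 for β4a, 3 for β4b and 5 for the mean of the variants, all 0 without it. As a random effect it gave 2, 5 and 1, and 1 for β4b against β4e. With the block, leaving out single arrays gave 0 to 2 for β4a, 0 to 61 for β4b (61 without eGFP replicate 1), 0 to 3 for the mean and 0 to 1 for β4a against β4e. The member count for replicate number was 12 to 19 over all settings.

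Some member differences, none past the threshold, changed sign when single arrays were left out. Without the block these fits hold unequal replicate numbers. For β4a the range was -0.0522 to 0.0604 for Camk2d, -0.308 to 0.091 for Camk2g, -0.2279 to 0.1088 for Ppp3r1, -0.9553 to 0.1532 for Camk2d 1439168_at and -0.3207 to 0.1488 for Ppp3r1 1421786_at. For β4b the range was -0.0805 to 0.0226 for Camk4, -0.1981 to 0.0945 for Camkk2, -0.0826 to 0.054 for Camk2d, -0.0804 to 0.2563 for Ppp3r1 and -0.4752 to 0.1401 for Ppp3r1 1421786_at. For β4e the range was -0.1337 to 0.113 for Camk1, -0.0655 to 0.0461 for Camk4, -0.2136 to 0.079 for Camkk2, -0.2013 to 0.1977 for Camk2g, -0.0342 to 0.0332 for Ppp3cb, -0.0237 to 0.3386 for Ppp3r1, -1.2691 to 0.088 for Prkcb, -0.0589 to 0.1036 for Camk4 1421941_at, -1.0136 to 0.0745 for Camk2d 1439168_at, -1.412 to 0.147 for Prkcb 1423478_at and -0.0834 to 0.1767 for Ppp3cb 1427468_at. With the block, for β4a the range was -0.0435 to 0.1947 for Camk1, -0.0915 to 0.0024 for Camk4, -0.0428 to 0.0522 for Camk2d, -0.216 to 0.0515 for Camk2g, -0.2237 to 0.0381 for Ppp3r1 and -0.2179 to 0.1152 for Ppp3r1 1421786_at. With the block, for β4b the range was -0.0466 to 0.0129 for Camk4, -0.2202 to 0.0849 for Camkk2, -0.0762 to 0.0395 for Camk2d and -0.0763 to 0.1856 for Ppp3r1. With the block, for β4e the range was -0.1608 to 0.1097 for Camk1, -0.0316 to 0.0279 for Camk4, -0.2357 to 0.0694 for Camkk2, -0.1938 to 0.0031 for Camk2d, -0.0756 to 0.1582 for Camk2g, -0.0525 to 0.0018 for Ppp3ca, -0.0126 to 0.0137 for Ppp3cb and -0.0775 to 0.053 for Camk4 1421941_at.

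Quantile normalization gave -0.002 for Ppp3cb with β4e. The mean of a gene's tested probe sets, in place of the brightest, gave 0.3559, 0.4195 and 0.1941 for Camk4 with β4a, β4b and β4e, -0.067 for Camk2d with β4a, 0.1324 and 0.1821 for Ppp3cb with β4a and β4b, and -0.0671 and -0.1689 for Ppp3r1 with β4b and β4e. The cause of these changes was not tested.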
